A study of Mus musculus with 6 samples.

Results

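The genes described here are 29 enzymes, regulators and carriers of branched-chain amino acid and ketone body catabolism, measured in the muscle of mice lacking Tarsl2, which encodes a threonyl-tRNA synthetase-like protein. They were chosen by name from general knowledge, with earlier results of these data known. They cover the breakdown of valine, leucine and isoleucine, the handling of the propionyl-CoA this yields, and ketone body use. All 29 were found among the 53084 rows of the count table. Tarsl2+/+ (labelled WT) and Tarsl2-/- (labelled KO) mice were male, of strain C57BL/6, 6 weeks old and kept on standard chow, with 3 mice of each genotype and 1 RNA-seq library per mouse. In Tarsl2-/- mice, CRISPR/Cas9 had removed a genomic fragment with exon 3 from zygotes, so that the deletion was present in the whole body and not in muscle alone. The labels do not say which muscle was taken.

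Leucine, isoleucine and valine are the amino acids whose breakdown starts largely in muscle and not in the liver. A mitochondrial aminotransferase turns each into its keto acid, and the branched-chain keto acid dehydrogenase (BCKDH) complex then commits the keto acid to oxidation. The complex is switched off by a kinase and on again by a phosphatase. Each amino acid follows its own branch after that: leucine ends as acetyl-CoA and acetoacetate, valine as propionyl-CoA and isoleucine as both acetyl-CoA and propionyl-CoA, which a biotin enzyme and a vitamin B12 enzyme pass on to the citrate cycle. Muscle also burns ketone bodies that the liver exports, by way of 3-hydroxybutyrate dehydrogenase and succinyl-CoA:3-ketoacid-CoA transferase.

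The libraries held between 16176591 and 20123767 counts each, so that 3 counts were worth 0.146 to 0.187 CPM. CPM here are counts per library size after TMM normalization, which corrects library sizes for differences in RNA composition. Tarsl2 itself was at 26.7, 32.1 and 24.4 CPM in Tarsl2+/+ mice 583, 584 and 595 and at 2.23, 1.87 and 1.80 in Tarsl2-/- mice 588, 589 and 591. It was thus lower in every library labelled KO. All 9 skeletal muscle identity genes were tested, whereas 10 retinal genes, looked at because the sample records mention a retinal extraction, had at most 7 counts in any library. The library of Tarsl2-/- mouse 589, whose title has a letter T that no other title has, had the highest summed CPM of the adipocyte and of the slow fibre markers. Over all genes, Tarsl2+/+ mice 584 and 595 differed most within a genotype (chi-square per gene 28.4), whereas mouse 589 differed from 588 and 591 by 14.3 and 15.4, close to the 12.9 between those mice. Without Tarsl2+/+ mouse 584, 625 genes had an adjusted p under 0.05 by edgeR, against 342 with all mice. In bulk muscle, fewer cells of a type and less RNA per cell cannot be told apart.

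Most of the pathway genes were higher in Tarsl2-/- muscle, but the differences were small and few passed the test. The fitted log2 fold change (Tarsl2-/- over Tarsl2+/+) was above 0 for 24 of the 29 (82.8%) and below 0 for 5, against 50.4% above 0 over all 15075 genes tested. The median was 0.27 over the 29 genes and 0.00253 over all genes tested, and the range was -1.53 to 0.63. The 3 Tarsl2-/- values all lay above the 3 Tarsl2+/+ values for 14 of the 29 genes (48.3%), against 12.6% of all genes tested, and all lay below for 1 (3.45%), against 12%. Genes were called with a quasi-likelihood test in edgeR, adjusted by Benjamini-Hochberg over all genes tested, at an adjusted p under 0.05. By this rule 2 of the 29 (6.9%), Bckdhb and Auh, were higher and 0 were lower. Over all genes 2.27% were called, 0.896% higher and 1.37% lower. At an unadjusted p under 0.05 the edgeR test gave 13 higher (44.8%) and 1 lower, Bdh1, against 19.8% of all genes, 9.57% higher and 10.2% lower. DESeq2 called 8 higher (Acat1, Aldh6a1, Auh, Bcat2, Bckdhb, Hibadh, Hsd17b10 and Ivd) and 1 lower (Bdh1), and limma-voom called 2 higher and 0 lower. Over all genes DESeq2 called 671 (300 higher and 371 lower) and limma-voom 318 (133 higher and 185 lower). DESeq2 was fitted to every gene with at least 1 count, not to the 15075.

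**Figure D1:**
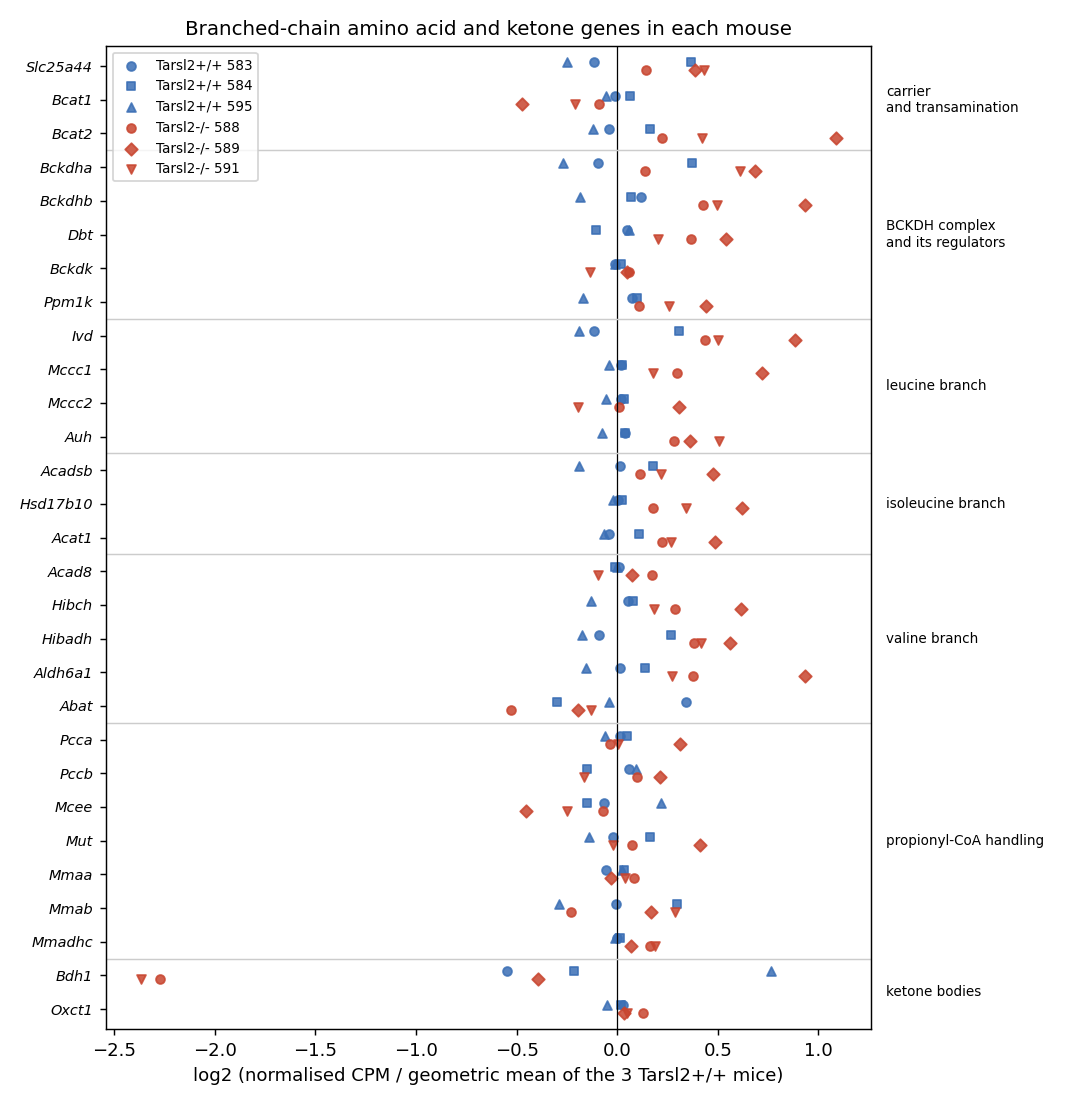
Each point is 1 mouse: the horizontal axis is the log2 ratio of its normalised CPM to the geometric mean of the 3 Tarsl2+/+ mice, and the 29 genes are ordered by pathway step (blue, Tarsl2+/+; red, Tarsl2-/-). From the transaminase to the valine branch most red points lie to the right, with mouse 589 (diamond) farthest right for many genes, while the propionyl-CoA genes lie close to 0 and Bdh1 lies to the left.

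The genes differed widely in level. Per kilobase of gene length (FPKM), Tarsl2+/+ muscle had most of Mcee, at 153.6 ± 21.0 (SD, n = 3), followed by Mmadhc at 67.8 ± 0.553, Hsd17b10 at 57.1 ± 0.892 and Pccb at 51.4 ± 4.59. Abat, at 0.412 ± 0.093, and Bcat1, at 0.790 ± 0.0335, were lowest. The mitochondrial aminotransferase gene Bcat2 (11.8 ± 1.22 FPKM) was thus far above the cytosolic Bcat1, and the kinase gene Bckdk (30.4 ± 0.330 FPKM) far above the phosphatase gene Ppm1k (1.32 ± 0.129 FPKM).

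Entry into the pathway comprised a carrier and both aminotransferases. Bcat2, the mitochondrial aminotransferase that starts the breakdown, was at 44.5, 51.2 and 42.0 CPM in Tarsl2+/+ mice 583, 584 and 595 and at 53.5, 97.3 and 61.3 CPM in Tarsl2-/- mice 588, 589 and 591. All Tarsl2-/- mice were above all Tarsl2+/+ mice, mouse 589 by far the most, and the log2 fold change of 0.62 (standard error 0.18) did not pass the test (adjusted p = 0.0994, edgeR). Without mouse 589 it was 0.32 (adjusted p = 0.212, edgeR). Bcat1, its cytosolic counterpart, was the only one of the 29 genes whose Tarsl2-/- values all lay below: 6.91, 5.30 and 6.37 CPM against 7.31, 7.70 and 7.09. The log2 fold change of Bcat1 was -0.25 (adjusted p = 0.382, edgeR). Slc25a44, the mitochondrial carrier that imports branched-chain amino acids, overlapped between genotypes (12.02 to 18.4 CPM in Tarsl2+/+ and 15.8 to 19.2 CPM in Tarsl2-/- mice).

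Among the genes of the BCKDH complex, the E1 subunit gene Bckdhb rose 1.55-fold. Bckdhb (ENSMUSG00000032263, chromosome 9 of GRCm38, 83925145 to 84124240, plus strand) encodes the beta chain of the decarboxylase that makes the first step of the complex. It was at 24.6, 23.7 and 19.9 CPM in Tarsl2+/+ mice 583, 584 and 595 and at 30.4, 43.2 and 31.9 CPM in Tarsl2-/- mice 588, 589 and 591. The groups did not overlap, mouse 589 was again highest, and the log2 fold change was 0.63 (standard error 0.14, 95% interval 0.32 to 0.93, adjusted p = 0.0418 by edgeR). The direction held with each mouse left out (0.46 to 0.72), whereas the call did not: the adjusted p was 0.109 without Tarsl2+/+ mouse 583, 0.152 without Tarsl2+/+ mouse 595, 0.106 without Tarsl2-/- mouse 589 and 0.076 without Tarsl2-/- mouse 591 (edgeR).

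The other subunit genes had smaller differences in the same direction. Dbt, the E2 core that carries the lipoyl arm, was at 34.3, 30.8 and 34.6 CPM in Tarsl2+/+ and 42.7, 48.2 and 38.2 CPM in Tarsl2-/- mice, with no overlap and a log2 fold change of 0.37 (adjusted p = 0.0827, edgeR). Bckdha, the E1 alpha chain, was at 13.8, 19.1 and 12.2 CPM against 16.2, 23.8 and 22.5, so that Tarsl2+/+ mouse 584 lay above Tarsl2-/- mouse 588 and the groups overlapped (log2 fold change 0.47, adjusted p = 0.173, edgeR). Without Tarsl2+/+ mouse 584 the log2 fold change of Bckdha was 0.68 (adjusted p = 0.047, edgeR). Of the exonic length of Bckdha, 61.7% is also covered by exons of B3gnt8 on the opposite strand. The use of strand in the counting is not given in the sources used here, so reads there cannot be assigned with certainty, but B3gnt8 had at most 66 counts in any library and Bckdha at least 233. Dld, the E3 subunit that BCKDH shares with other dehydrogenase complexes, overlapped between genotypes (252 to 273 CPM in Tarsl2+/+ and 253 to 321 CPM in Tarsl2-/- mice, log2 fold change 0.10, adjusted p = 0.648, edgeR).

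The kinase and the phosphatase of the complex did not pass the test either. Bckdk, the kinase that inactivates it, was at 111.5, 113.6 and 111.5 CPM in Tarsl2+/+ mice and at 117, 116 and 102 CPM in Tarsl2-/- mice. The Tarsl2+/+ values lay within the range of the Tarsl2-/- values: the log2 fold change was -0.0075 with an interval of -0.20 to 0.18 (95%; standard error 0.086; adjusted p = 0.979, edgeR). Ppm1k, the phosphatase that reactivates the complex, was at 8.30, 8.45 and 7.03 CPM in Tarsl2+/+ and at 8.53, 10.7 and 9.43 CPM in Tarsl2-/- mice, without overlap, but with mouse 588 close to Tarsl2+/+ mouse 584 (log2 fold change 0.27, adjusted p = 0.312, edgeR). The log2 ratio of Ppm1k to Bckdk in CPM was -3.83 ± 0.137 (SD, n = 3) in WT muscle, against -3.55 ± 0.197 (SD, n = 3) in KO muscle, and was not tested. Mouse 588, at -3.78, lay among the Tarsl2+/+ values of -3.75, -3.75 and -3.99, whereas mice 589 and 591 were at -3.43 and -3.44.

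**Figure D2:**
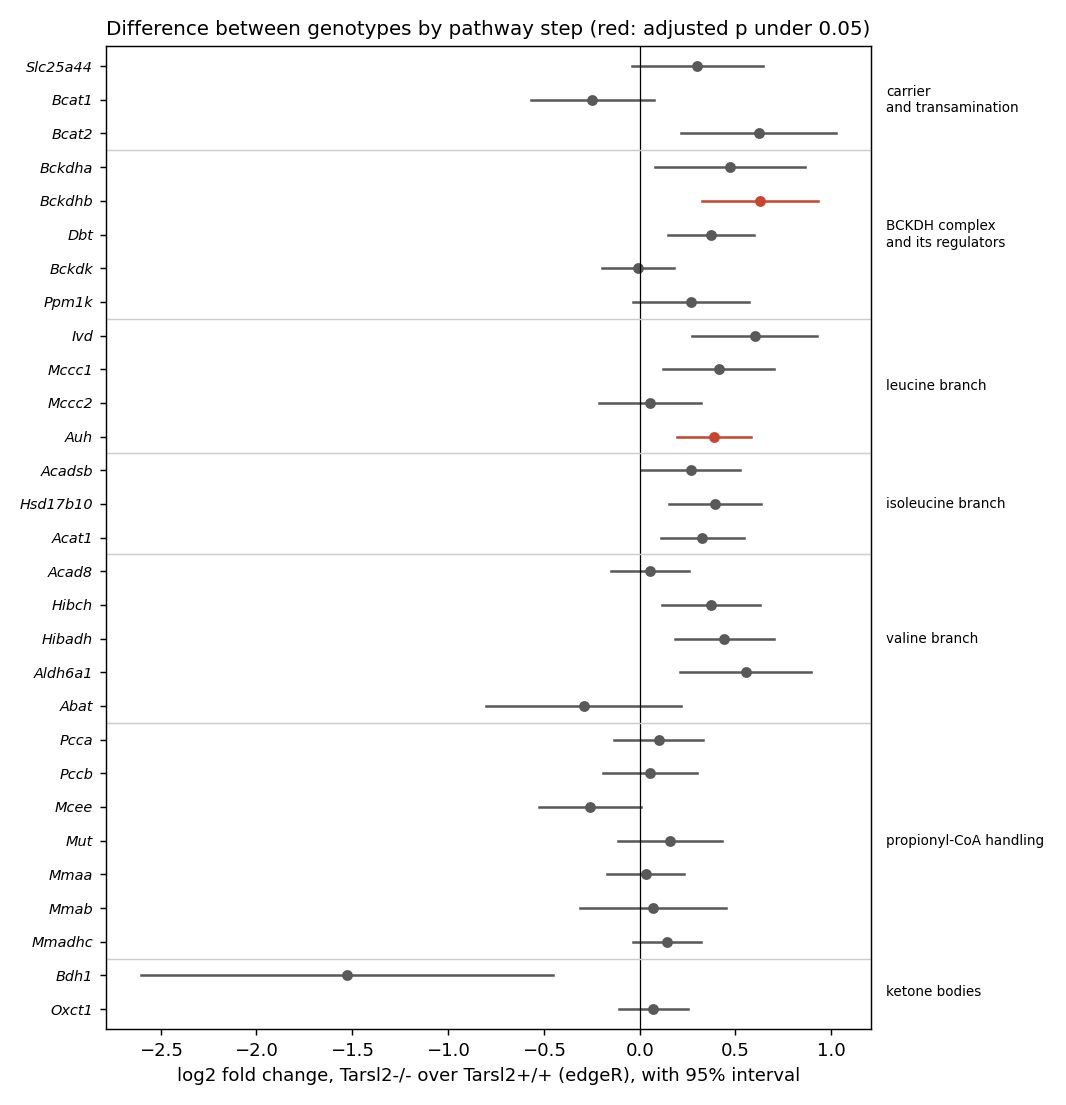
Fitted log2 fold change (Tarsl2-/- over Tarsl2+/+, horizontal axis) of each gene with its 95% interval from the edgeR fit, ordered by pathway step; red marks an adjusted p under 0.05. Bckdhb (0.63) and Auh (0.39) are red, Bckdk lies near 0, and Bdh1 has the lowest value (-1.53) and the widest interval.

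In the leucine branch, Auh was the second gene past the threshold. Auh (ENSMUSG00000021460, chromosome 13, 52835119 to 52929681, minus strand) encodes methylglutaconyl-CoA hydratase, an enzyme of leucine breakdown that also binds AU-rich RNA. It was at 60.3, 60.2 and 55.7 CPM in Tarsl2+/+ mice 583, 584 and 595 and at 71.5, 75.4 and 83.4 CPM in Tarsl2-/- mice 588, 589 and 591. The groups were well apart, and here mouse 591 and not mouse 589 was highest. The log2 fold change was 0.39 (standard error 0.088, 95% interval 0.19 to 0.58, adjusted p = 0.0472, edgeR), a rise of 1.31-fold. With each mouse left out it stayed between 0.32 and 0.44, and the adjusted p was over 0.05 in all 6 of these fits, from 0.0517 without Tarsl2+/+ mouse 584 to 0.161 without Tarsl2+/+ mouse 595 (edgeR).

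The other leucine genes differed among themselves. Ivd, isovaleryl-CoA dehydrogenase, was at 40.5, 54.3 and 38.4 CPM in Tarsl2+/+ and 59.3, 80.9 and 62.0 CPM in Tarsl2-/- mice, with log2 fold change 0.60 (adjusted p = 0.0615, edgeR). The groups did not overlap, and without Tarsl2+/+ mouse 584, the highest of its group, the log2 fold change was 0.77 (adjusted p = 0.0152, edgeR). Methylcrotonyl-CoA carboxylase is built from an alpha chain, which carries biotin, and a beta chain. The alpha chain gene Mccc1 was at 20.2, 20.3 and 19.4 CPM against 24.5, 32.9 and 22.6, without overlap (log2 fold change 0.41, adjusted p = 0.121, edgeR). The beta chain gene Mccc2 was at 30.2, 30.5 and 28.7 CPM against 30.0, 36.9 and 26.0, with mouse 589 above and mouse 591 below all Tarsl2+/+ mice (log2 fold change 0.05, adjusted p = 0.857, edgeR), and it turned to -0.088 without mouse 589.

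The windows around the transcript starts are shown for Bckdhb and Auh, which passed the test, and for the kinase gene Bckdk, whose log2 fold change was near 0. RefSeq promoter windows (assembly GRCm38.p6, 250 bases before to 50 bases after each start) matched 23 of the 29 genes, and 5 motifs were searched on both strands. The 250 bases before the start are printed 5′ to 3′ on the strand of the gene, with motif matches in capitals: chr9:83924887-83925136 (plus strand) for Bckdhb, chr13:52929678-52929927 (minus strand) for Auh and chr7:127903823-127904072 (plus strand) for Bckdk.
Bckdhb: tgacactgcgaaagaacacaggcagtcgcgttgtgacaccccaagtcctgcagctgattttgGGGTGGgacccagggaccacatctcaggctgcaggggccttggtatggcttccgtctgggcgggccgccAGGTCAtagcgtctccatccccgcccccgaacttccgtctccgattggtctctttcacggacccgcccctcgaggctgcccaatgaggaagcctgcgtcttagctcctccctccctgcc
Auh: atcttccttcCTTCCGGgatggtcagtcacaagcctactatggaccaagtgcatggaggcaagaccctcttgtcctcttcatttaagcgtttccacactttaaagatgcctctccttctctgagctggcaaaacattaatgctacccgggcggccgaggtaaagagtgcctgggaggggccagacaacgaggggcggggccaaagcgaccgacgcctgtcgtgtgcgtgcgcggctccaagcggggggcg
Bckdk: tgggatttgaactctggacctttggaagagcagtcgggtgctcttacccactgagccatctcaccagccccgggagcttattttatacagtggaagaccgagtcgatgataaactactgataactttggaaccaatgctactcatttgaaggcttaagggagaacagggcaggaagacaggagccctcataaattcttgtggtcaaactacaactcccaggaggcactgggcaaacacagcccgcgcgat
The capitals in Bckdhb are a nuclear receptor half-site, AGGTCA, beginning 119 bases before the start, and a CACCC box, CCACCC read on the other strand, beginning 188 bases before it. Those in Auh are an ETS core, CCGGAAG on the other strand, beginning 240 bases before the start, and Bckdk held none of the motifs. AGGTCA was found in 7 of 30 windows of the pathway genes (6 genes: Aldh6a1, Bcat1, Bckdhb, Hibadh, Pcca and Ppm1k) and in 16.3% of all 32851 windows. CCACCC was found in 12 of the 30 and in 31.5% of all, and CCGGAAG in 1 of the 30 and in 8.86% of all. The longer elements TCAAGGTCA and a direct repeat of AGGTCA with 1 base between the copies, both of which contain AGGTCA, were in 0 of the 30 windows and in 0.423% and 0.0396% of all. The genes with AGGTCA include Bckdhb but also Bcat1, all of whose Tarsl2-/- values were lower, and Pcca, whose genotypes overlapped. In Bcat1 and Aldh6a1, which have 2 windows each, the window nearest the start of the gene held no AGGTCA, and only the other did. A match describes letters in a window and is no evidence that a factor binds there.

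In the isoleucine branch no gene passed the test. Hsd17b10, the dehydrogenase of 2-methyl-3-hydroxybutyryl-CoA, was at 74.2, 75.3 and 73.0 CPM in Tarsl2+/+ and 83.8, 114 and 93.9 CPM in Tarsl2-/- mice (log2 fold change 0.39, adjusted p = 0.0846, edgeR). Acat1, the mitochondrial thiolase that ends this branch and also works on ketone bodies, was at 176, 195 and 173 CPM against 211, 253 and 218 (log2 fold change 0.33, adjusted p = 0.102, edgeR). In both genes all Tarsl2-/- mice were above all Tarsl2+/+ mice, and mouse 589 was highest. Acadsb, the acyl-CoA dehydrogenase of short branched chains, overlapped, since Tarsl2+/+ mouse 584 (62.6 CPM) lay above Tarsl2-/- mouse 588 (59.9 CPM) (log2 fold change 0.27, adjusted p = 0.236, edgeR).

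In the valine branch 3 of 5 genes had no overlap, again without passing the test. Hibch, which releases 3-hydroxyisobutyrate from CoA, was at 54.3, 55.4 and 47.8 CPM in Tarsl2+/+ and 63.9, 80.4 and 59.5 CPM in Tarsl2-/- mice (log2 fold change 0.37, adjusted p = 0.115, edgeR). Hibadh, the dehydrogenase of 3-hydroxyisobutyrate, was at 105, 134 and 99.0 CPM against 145, 165 and 149 (log2 fold change 0.44, adjusted p = 0.0737, edgeR). Hibadh depended on Tarsl2+/+ mouse 584, the highest of its group: without it the log2 fold change was 0.59 (adjusted p = 0.0124, edgeR). Aldh6a1, the dehydrogenase that yields propionyl-CoA, was at 73.3, 79.7 and 65.1 CPM against 94.0, 139 and 87.6 (log2 fold change 0.55, adjusted p = 0.0854, edgeR), and 0.32 without mouse 589. The other genes of the branch did not follow. Acad8, isobutyryl-CoA dehydrogenase, was at 31.1 to 31.5 CPM in Tarsl2+/+ and 29.3 to 35.3 CPM in Tarsl2-/- mice. Abat, best known for the breakdown of GABA, was low, at 2.55 to 3.97 CPM and 2.17 to 2.87 CPM.

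The 7 genes of propionyl-CoA handling had a median log2 fold change of 0.07, the smallest in size of the steps, and ranged from -0.26 to 0.16. The genotypes overlapped for both chains of propionyl-CoA carboxylase, Pcca (0.10) and Pccb (0.05), for methylmalonyl-CoA mutase, Mut (0.16), and for Mmaa (0.03) and Mmab (0.07), which serve its vitamin B12 cofactor. Pccb, the most abundant of these, was at 128 to 151 CPM in Tarsl2+/+ and 127 to 165 CPM in Tarsl2-/- mice. Mcee, the epimerase between them, was at 139, 131 and 170 CPM in Tarsl2+/+ and 139, 107 and 123 CPM in Tarsl2-/- mice (log2 fold change -0.26, adjusted p = 0.269, edgeR). Mouse 589, the highest library for 17 of the 29 genes, was the lowest of all for Mcee. Mmadhc, which directs vitamin B12 to its uses in cytosol and mitochondria, did not overlap, at 136, 138 and 135 CPM against 153, 143 and 156, but its log2 fold change was 0.14 (adjusted p = 0.363, edgeR).

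The ketone body genes went different ways. Bdh1, the mitochondrial 3-hydroxybutyrate dehydrogenase, was at 2.57, 3.24 and 6.40 CPM in Tarsl2+/+ mice 583, 584 and 595 and at 0.780, 2.87 and 0.729 CPM in Tarsl2-/- mice 588, 589 and 591. Mice 588 and 591 were below all others, and mouse 589 lay within the Tarsl2+/+ range. The log2 fold change of -1.53 (standard error 0.49, 95% interval -2.61 to -0.45) was the largest in size of the 29 and had the widest interval, and it did not pass the test (adjusted p = 0.121, edgeR). Without mouse 589 it was -2.43 (adjusted p = 0.0342, edgeR), and without Tarsl2+/+ mouse 595 it was -1.04 (adjusted p = 0.377, edgeR). The counts behind it were as low as 14. Oxct1, the CoA transferase that commits acetoacetate to oxidation, was at 171, 170 and 162 CPM against 183, 172 and 173, without overlap by a narrow margin, with a log2 fold change of 0.07 (95% interval -0.11 to 0.25, adjusted p = 0.683, edgeR).

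The size of the shift differed between the mice. The median deviation of the 29 genes from the Tarsl2+/+ mean, in log2, was 0.14 in mouse 588, 0.39 in mouse 589 and 0.19 in mouse 591, against 0.0017, 0.046 and -0.062 in Tarsl2+/+ mice 583, 584 and 595. Mouse 589 had the highest value for 17 of the 29 genes, and Tarsl2+/+ mouse 595 had the lowest for 19. Without mouse 589 the median log2 fold change over the 29 genes was 0.18, and without Tarsl2+/+ mouse 595 it was also 0.18. By step, the medians with and without mouse 589 were 0.30 and 0.27 for the carrier and transamination, 0.37 and 0.29 for the BCKDH complex and its regulators, 0.40 and 0.32 for leucine, 0.33 and 0.25 for isoleucine, 0.37 and 0.24 for valine, 0.07 and 0.02 for propionyl-CoA, and -0.73 and -1.17 for the ketone body pair.

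**Figure D3:**
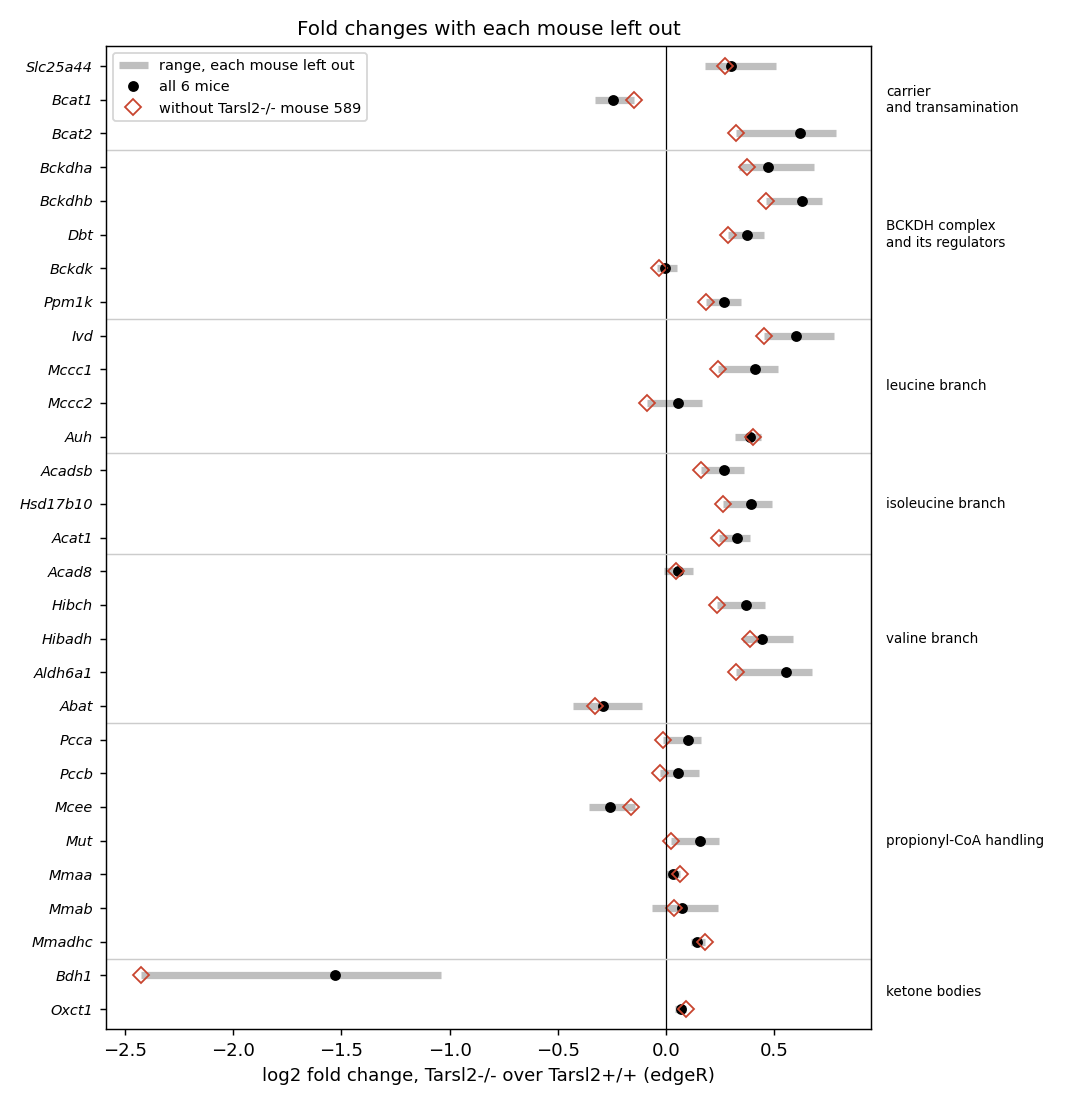
Log2 fold change (horizontal axis) of each gene with all 6 mice (black point), its range when each mouse was left out in turn (grey bar) and its value without Tarsl2-/- mouse 589 (open diamond). For most genes from Bcat2 to Aldh6a1 the diamond lies to the left of the point and to the right of 0, for Auh it lies at 0.40, to the right of the point, and for Bdh1 it moves to -2.43.

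Summed adipocyte and slow fibre markers, like the median of these genes, were highest in mouse 589. Summed leukocyte, erythrocyte, endothelial and fibroblast markers were lowest in that mouse. Adipocyte markers summed to 2818 to 4249 CPM in Tarsl2+/+ mice and to 3297, 7209 and 3693 CPM in Tarsl2-/- mice 588, 589 and 591. Fabp4, 1 of the 8 markers, made the largest part of each sum. It was at 1542 to 2234 CPM in Tarsl2+/+ mice and at 1937, 3361.5 and 2260 CPM in Tarsl2-/- mice 588, 589 and 591. None of the 8 was at 0, and Cfd, Adipoq and Plin1 were highest in mouse 589 (2722, 313 and 115 CPM, against at most 1349, 195 and 72.0 in the other mice), whereas Lep was not, at 10.8 CPM in mouse 589 against 8.13, 23.5 and 16.7 in the Tarsl2+/+ mice. By edgeR 0 of the 8 were past the threshold (3 higher and 1 lower, Lep, at an unadjusted p under 0.05), by DESeq2 1 and by limma-voom 0, and the median log2 fold change was 0.43, and -0.18 without mouse 589. Slow fibre markers summed to 971, 1042 and 1664 CPM in Tarsl2+/+ and to 1302, 2014 and 1425 CPM in Tarsl2-/- mice, so that Tarsl2+/+ mouse 595, low for the pathway genes, was high for these. By edgeR, DESeq2 and limma-voom 0 of the 10 were past the threshold (4 at an unadjusted p under 0.05, edgeR), with a median of 0.41, and 0.14 without mouse 589.

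With the mean of the adipocyte markers as a covariate, the median over the 29 pathway genes was 0.20, and 5 were past the threshold, all higher (Aldh6a1, Auh, Bcat2, Bckdhb and Ivd). With the slow fibre markers as the covariate it was 0.24, and 0 were higher past the threshold (7 of the 29 had an unadjusted p under 0.05 in either direction), while Bdh1 was lower (log2 fold change -2.46, adjusted p = 0.00863, edgeR). Without mouse 589 and Tarsl2+/+ mouse 584, the library of each genotype with most adipocyte counts, the median was 0.23, Hibadh and Ivd were higher and Bdh1 was lower past the threshold. Calls over all genes were not counted in these added fits, so no background share stands beside their calls. Markers of mitochondrial content (18 genes, such as Cs and Vdac1) summed to 3721, 3813 and 4094 CPM in Tarsl2+/+ and 4175, 4167 and 3964 CPM in Tarsl2-/- mice, with a median of 0.17, and 0.14 without mouse 589. Of the 18, 10 had all Tarsl2-/- values above all Tarsl2+/+ values and 0 had all below. Over all genes tested these shares were 12.6% and 12%, and of the 29 pathway genes 14 lay above and 1 below. By edgeR and limma-voom 0 of these 18 were past the threshold (6 at an unadjusted p under 0.05, edgeR), and by DESeq2 2. The part of mitochondrial content in the pathway values was not tested.

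**Figure D4:**
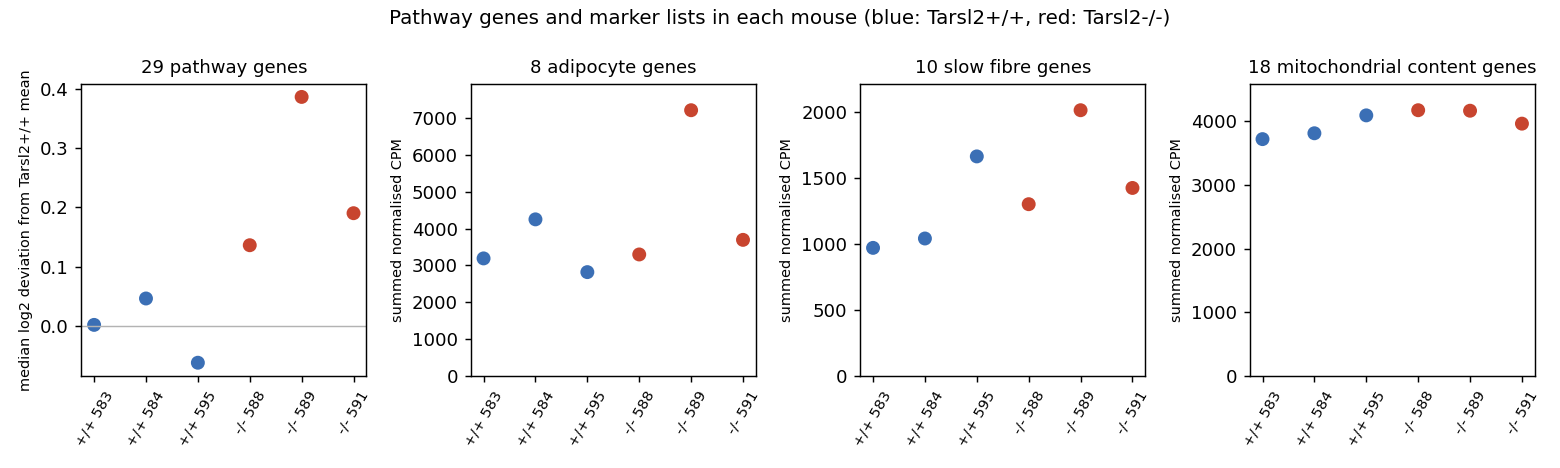
For each mouse (horizontal axis; blue, Tarsl2+/+; red, Tarsl2-/-), from left to right, the median log2 deviation of the 29 pathway genes from the Tarsl2+/+ mean and the summed normalised CPM of 8 adipocyte, 10 slow fibre and 18 mitochondrial content genes. Mouse 589 is highest in the first 3 panels, and the 3 Tarsl2-/- mice are above the 3 Tarsl2+/+ mice in the first panel but not in the others.

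Leukocyte markers were lower, with 4 of 10 past the threshold, a median of -1.24 and sums of 252.5 to 357.4 CPM in Tarsl2+/+ and 119 to 155 CPM in Tarsl2-/- mice. Erythrocyte markers had a median of -0.865 and sums of 4757 to 10420 CPM against 4175 to 4545 CPM (0 of 7 past the threshold by edgeR and limma-voom, 1 by DESeq2, and 6 at an unadjusted p under 0.05). Muscle identity genes had 3 of 9 higher, with a median of 0.216, and 0.214 without mouse 589. Fast fibre genes had 2 of 9 higher, with a median of 0.156, and 0.18 without mouse 589. The median of the 29 pathway genes without mouse 589 was 0.178. Over all genes 0.896% were called higher and 1.37% lower by edgeR. Endothelial markers had 1 of 7 lower, fibroblast markers 0 of 6 past the threshold (2 lower by DESeq2, 0 by limma-voom, 2 lower at an unadjusted p under 0.05) and hepatocyte markers 0 of 4, also by the other tools and at an unadjusted p under 0.05. The part of these cells in the pathway values was not tested.

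Regulators known to act on oxidative metabolism were looked at as a list of 10. All 10 had a positive log2 fold change, against 50.4% of all genes tested. The smallest were those of Mlxipl (0.0295) and Pparg (0.11), whose genotypes overlapped. By edgeR 4 rose past the threshold (5 by DESeq2 and 3 by limma-voom), against 0.896% of all genes by edgeR. Klf15, a factor known for driving branched-chain amino acid catabolism in muscle, was at 25.7, 19.6 and 19.6 CPM in Tarsl2+/+ mice and at 31.2, 40.2 and 36.5 CPM in Tarsl2-/- mice. The groups did not overlap, and the log2 fold change of Klf15 was 0.74 (adjusted p = 0.0174, edgeR). Pdk4, Ppara and Ppargc1b were the others past the threshold by edgeR, with log2 fold changes of 1.304, 1.59 and 1.097. The part of these regulators in the pathway values was not tested.

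Of 56 further genes of these pathways, 50 had enough counts to be tested and 1 rose by edgeR (4 by DESeq2 and 1 by limma-voom): Mlycd, the malonyl-CoA decarboxylase that removes the malonyl-CoA which holds back fatty acid oxidation. Mlycd was at 70.0, 74.1 and 75.2 CPM in Tarsl2+/+ and at 99.0, 104 and 107 CPM in Tarsl2-/- mice, without overlap, and its log2 fold change was 0.50 (adjusted p = 0.0124 by edgeR, standard error 0.081). None was lower by edgeR, DESeq2 or limma-voom, and at an unadjusted p under 0.05 by edgeR 11 were higher and 2 lower. The median over the 50 was 0.12, below that of the 29 genes. Without overlap 12 were higher and 4 lower, against 12.6% and 12% of all genes tested. Of the enzymes listed as shared with other pathways, Acadm (log2 fold change 0.39), Echs1 (0.39), Ehhadh (0.70), Hadha (0.36), Hadhb (0.34), Acaa2 (0.46) and Aldh9a1 (0.27) were higher without overlap. Aldh3a2 (-0.17) was lower without overlap, and the others tested overlapped, such as Acads (0.03) and Acaa1a (0.005). None of these enzymes passed the test by edgeR.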

How the data were processed

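RNA was taken from muscle, and libraries were prepared with a stranded, poly(A)-selecting kit, sequenced as paired ends, mapped with HISAT2 to mm10 (GRCm38) and compared with DESeq2, per the study's methods. The submitters' processing notes instead list Bowtie 0.12.2 and mm8, but the coordinates in the table are those of GRCm38. The counter, its annotation and its use of strand are not given in the sources used here. The authors deposited 1 table of raw read counts per gene, without normalization, for all 6 libraries. Its 448 rows without a gene name (0.1145% to 0.1278% of counts) were kept and went through the same filter and test as the others.

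Genotypes were taken from the labels. Genes were kept by filterByExpr (minimum count 10, minimum total 15), scaled by TMM and tested two-sided with edgeR 4.0.16 (quasi-likelihood, genotype as the only factor, R 4.3.3), with Benjamini-Hochberg adjustment over all 15075 genes and a threshold of 0.05. Standard errors are the size of the log2 fold change over the square root of F. With 3 libraries a genotype, p-values weigh the genotype difference against the spread between these mice. The test moderates that spread over all genes (common biological coefficient of variation 12.1%). The procedure was tested on simulated data. FPKM used the table's gene lengths.

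The pathway genes, the further lists and the motifs were chosen with earlier results of these data known. Genes were named by rule: those past the threshold, those without overlap, the BCKDH and ketone body genes, and of the further genes those past the threshold and Dld. Some results that this rule names are not reported here. Other genes given with values, among them Slc25a44, Mccc2, Acadsb, Acad8, Abat, Mcee, Klf15, the shared enzymes and single markers, were named outside that rule, after their values were seen. Alternatives were DESeq2 1.42.0, limma-voom (limma 3.58.1), RLE, upper quartile and no composition scaling, no filter beyond 1 count, at least 10 counts in every library, and each library left out. The fits without mouse 589 and Tarsl2+/+ mouse 584 and those with the adipocyte or slow fibre markers as a covariate were added after seeing the data.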

Additional observations from a re-analysis of the deposited data

How the results depend on the processing

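The median log2 fold change of the 29 pathway genes stayed above 0 in every alternative that was run (0.1765 to 0.3427 with each mouse left out), and Tarsl2 stayed past the threshold in each planned one. The count of pathway genes past the threshold depended on the choices. Higher genes numbered 8 by DESeq2, 1 with upper quartile scaling, 0 with library totals only, 12 with no filter beyond 1 count, 0 to 4 with each mouse left out (0 without Tarsl2+/+ mice 583 or 595 or Tarsl2-/- mice 589 or 591, and 4 without Tarsl2+/+ mouse 584: Bckdha, Bckdhb, Hibadh and Ivd), 5 with the adipocyte covariate and 0 with the slow fibre covariate. Lower genes numbered 1 (Bdh1) by DESeq2, with no filter, with the slow fibre covariate and without mice 589 and 584, and 0 to 1 with each mouse left out. The cause was not tested, and calls over all genes were not counted for the covariate fits or the fit without mice 589 and 584. Pathway genes without overlap numbered 14 to 18 higher and 1 to 3 lower with each mouse left out. Of all genes 16.2% to 20.3% were then higher and 15.7% to 20.1% lower, since fewer samples overlap less often. With all mice, 13 pathway genes were higher without overlap with upper quartile scaling, 11 with library totals only and 12 with no filter, and 1 was lower in each. Shares over all genes were not counted for these settings. Over all genes, 671 (300 higher, 371 lower) were past the threshold by DESeq2 and 1437 (611 and 826) with no filter. They were 363 (124 and 239) with upper quartile scaling and 336 (105 and 231) with library totals only. With each mouse left out they were 81 to 625 (31 to 242 and 50 to 383). Of the further pathway genes, 4 were past the threshold by DESeq2, 12 with no filter and 0 to 2 with each mouse left out. Genes tested by DESeq2 and with no filter were not counted here, so no share stands beside those calls. Small log2 fold changes turned in direction: Bckdk (-0.0417 to 0.0513), Mccc2 (-0.0877 to 0.164), Acad8 (-0.00842 to 0.124), Pcca (-0.0131 to 0.163), Pccb (-0.0300 to 0.151) and Mmab (-0.0658 to 0.237) with each mouse left out, Mccc2 (-0.0703) and Pccb (-0.102) without mice 589 and 584, Mccc2 with the adipocyte covariate (-0.0209), and Mccc2 (-0.0464) and Pccb (-0.0486) with the slow fibre covariate. No paired analysis was possible because the WT and KO libraries share no number in their labels. Bdh1 had as few as 14 counts in a library, the lowest of the 29 genes, so that its relative counting error is largest.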
